A study of Homo sapiens with 8 samples.

Results

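The genes described here are 10 components of the transforming growth factor beta (TGF-beta) pathway, chosen by name: the ligands TGFB1, TGFB2 and TGFB3, the receptors TGFBR1, TGFBR2 and TGFBR3, the receptor-activated SMADs SMAD2 and SMAD3, and the inhibitory SMADs SMAD6 and SMAD7. These genes, and the lists used below, were chosen with earlier results of these data known. All 10 genes were found among the 61552 genes of the deposited tables, and all 10 passed the filter on low counts. Their mRNA was measured in 8 libraries from 2 breast cancer cell lines, MDA-MB-231, a triple-negative line, and MDA231-LM2 (LM2 below), its derivative selected for metastasis to the lung. The groups were LM2 shTAF7, LM2 control, MDA-MB-231 shTAF7 and MDA-MB-231 control, with 2 libraries each, numbered 2 and 3. shTAF7 cells carried 1 short hairpin RNA (hairpin number 3) against TAF7, a subunit of the general transcription factor TFIID, and were labelled as TAF7 knockdown. Control cells carried a control hairpin and were labelled WT. All cells were grown in DMEM with fetal bovine serum, and the labels list no added TGF-beta. No other hairpin was measured, and nothing in the labels tells whether replicates were separate cultures, so the p-values measure only the spread between these libraries. According to its title, the study asked how TAF7 acts in the progression of triple-negative breast cancer.

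TGF-beta ligands are secreted in a latent form, bound to their own propeptide, and must be released before they can signal. An active dimer binds the type II receptor, encoded by TGFBR2, which recruits and phosphorylates the type I receptor, encoded by TGFBR1. The coreceptor betaglycan, encoded by TGFBR3, presents ligand to this pair and is required most by the product of TGFB2, which binds TGFBR2 weakly on its own. The type I receptor phosphorylates SMAD2 and SMAD3, which join SMAD4 and enter the nucleus, while SMAD6 and SMAD7 are induced as feedback inhibitors. In breast cancer the pathway is known both for restraining growth of early tumours and for promoting invasion and metastasis of later ones.

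The promoters of TGFB2, TGFBR2 and SMAD6 are shown because TGFB2 fell in both lines, TGFBR2 fell in LM2 and was higher in LM2 control, and SMAD6 differed most between the lines. RefSeq promoter windows of 300 bases (250 before and 50 after the RefSeq start, build GRCh38.p14) existed for all 10 genes, 26 windows in all. TGFB2 lies on chromosome 1, and its window is chr1:218345086-218345385 on the plus strand. TGFBR2 lies on chromosome 3, and of its 2 windows the one nearest the 5′ end of the GENCODE 29 gene is chr3:30606351-30606650 on the plus strand. SMAD6 lies on chromosome 15, as SMAD3 does, and its window is chr15:66701986-66702285 on the plus strand. Capitals mark matches to any of 6 searched motifs on either strand.
TGFB2: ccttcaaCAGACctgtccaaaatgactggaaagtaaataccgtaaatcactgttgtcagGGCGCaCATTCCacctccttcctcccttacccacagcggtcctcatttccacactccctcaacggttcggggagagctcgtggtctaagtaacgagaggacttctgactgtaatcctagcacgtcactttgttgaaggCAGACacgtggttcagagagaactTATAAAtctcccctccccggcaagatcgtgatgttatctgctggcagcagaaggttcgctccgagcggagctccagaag
TGFBR2: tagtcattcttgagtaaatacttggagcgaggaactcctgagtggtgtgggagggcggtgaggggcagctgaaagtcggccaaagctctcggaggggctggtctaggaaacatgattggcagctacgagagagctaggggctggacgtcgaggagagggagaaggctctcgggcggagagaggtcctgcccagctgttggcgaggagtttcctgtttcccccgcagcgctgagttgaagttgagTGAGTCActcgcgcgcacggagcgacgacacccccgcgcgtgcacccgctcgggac
SMAD6: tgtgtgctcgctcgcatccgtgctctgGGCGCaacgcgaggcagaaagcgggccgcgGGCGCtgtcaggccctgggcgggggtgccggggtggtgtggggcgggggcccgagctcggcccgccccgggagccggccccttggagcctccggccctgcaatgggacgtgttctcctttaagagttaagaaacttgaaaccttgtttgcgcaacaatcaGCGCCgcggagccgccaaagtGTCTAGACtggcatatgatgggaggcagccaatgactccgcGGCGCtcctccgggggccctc

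Positions are counted from the first base of the gene in RefSeq, which is +1. That base lies 899 bases upstream of the TGFB2 start in GENCODE 29, and 99 and 8 bases downstream of the GENCODE 29 starts of TGFBR2 and SMAD6. The TGFB2 window held a TATA box (TATAAA) at -29, the SMAD box CAGAC at -243 and -53, the GC-rich SMAD element GGCGC at -191 and a TEAD site (GGAATG, here on the minus strand as CATTCC) at -185. The TGFBR2 window held 1 match, the AP-1 site TGANTCA at -6. The SMAD6 window held GGCGC, on either strand, at -223, -193, -33 and 30, and the palindrome GTCTAGAC at -12, which contains no CAGAC. Of all 35116 RefSeq windows, 45.3% held CAGAC, 48.6% held GGCGC, 14% held the TEAD site, 11.5% held the TATA box and 7.71% held the AP-1 site. The palindrome was found in 71 windows, or 0.202%. It was added to the search after the windows had been read. These matches describe letters, not bound sites, and since the submitters' processing notes name the build hg19, these coordinates are not those of the counted genes.

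TAF7 mRNA was lower in the shTAF7 libraries of both lines. It stood at 142 and 148 CPM (counts scaled to library size) in LM2 shTAF7, against 195 and 197 CPM in LM2 control, and at 108 and 105 CPM in MDA-MB-231 shTAF7, against 179 and 185 CPM in MDA-MB-231 control. The log2 fold change was -0.43 ± 0.07 (SE) in LM2 and -0.77 ± 0.07 in MDA-MB-231, and the difference between these, 0.34 ± 0.09, had an adjusted p of 0.00544 (edgeR, n = 2 libraries a group). The remaining TAF7 mRNA was therefore higher in LM2 shTAF7 than in MDA-MB-231 shTAF7, and its part in any difference between the lines below was not tested. Markers of a basal and mesenchymal breast cancer line summed to between 7132 and 7704 CPM in LM2 shTAF7, 5645 and 5755 CPM in LM2 control, 6447 and 6500 CPM in MDA-MB-231 shTAF7, and 6049 and 6172 CPM in MDA-MB-231 control. Of these 10 markers 6 rose and 1 fell in LM2, where 21.8% of all tested genes rose and 19.4% fell (edgeR, adjusted p under 0.05). In MDA-MB-231 3 rose and 3 fell, where 12.6% of all tested genes rose and 12.9% fell. The 9 luminal epithelial markers summed to between 101 and 114 CPM in LM2 shTAF7, 63.2 and 64.9 CPM in LM2 control, 95.3 and 98.2 CPM in MDA-MB-231 shTAF7, and 74.2 and 77.4 CPM in MDA-MB-231 control. The largest part of that sum was KRT19, at 31.9 to 84.9 CPM. The keratins KRT8, at 318 to 538 CPM, and KRT18, at 251 to 369 CPM, were counted in the basal and mesenchymal list. Both sums depended on that placement. Of the 6 luminal markers tested 1 rose and 2 fell in LM2, and 1 rose and 0 fell in MDA-MB-231. EPCAM had 93 to 194 counts per library, GATA3 80 to 170, FOXA1 31 to 192, ERBB3 38 to 136 and ESRP1 30 to 127. CDH1, ESR1 and PGR had at most 3, 5 and 1 counts in any library. The 6 endothelial markers summed to between 6.98 and 7.13 CPM in LM2 shTAF7, 10.6 and 10.7 CPM in LM2 control, 7.46 and 7.87 CPM in MDA-MB-231 shTAF7, and 4.59 and 5.10 CPM in MDA-MB-231 control, and the 7 leukocyte markers to at most 2.28 CPM. The part of these markers in the results below was not tested. In bulk RNA, fewer cells of a kind and less RNA per cell cannot be told apart. Total counts were between 17217776 and 20292291 per library, so 1 read was worth between 0.0488 and 0.0583 CPM.

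**Figure D1:**
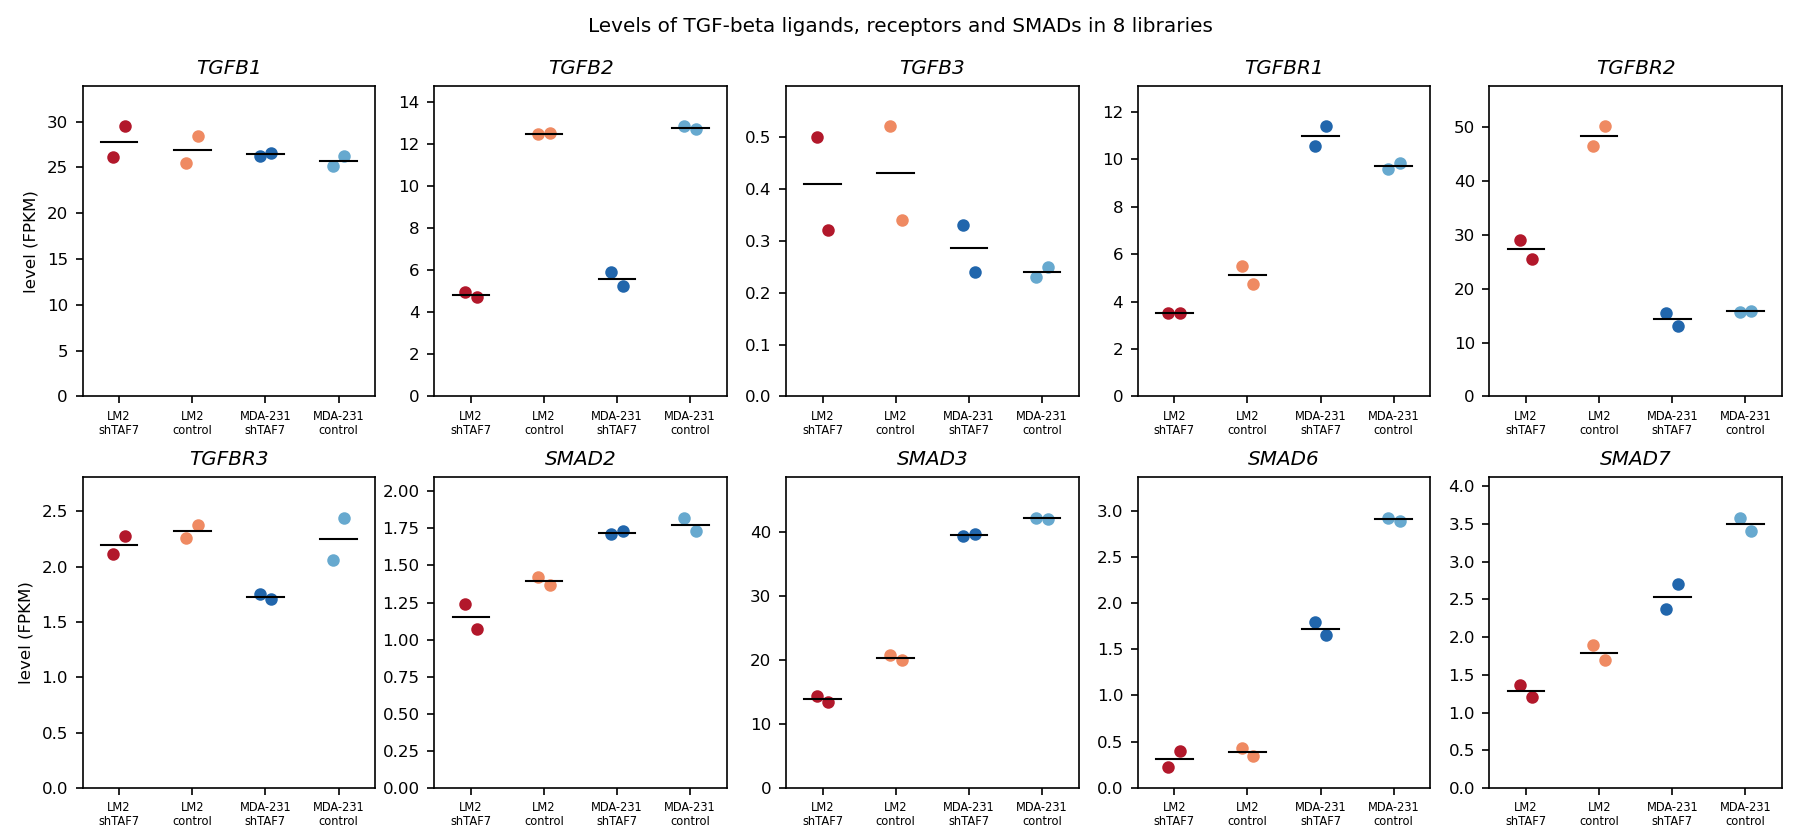
Level of each of the 10 genes in FPKM (fragments scaled to gene length and library size, linear axis from 0) in each library, with points for the 2 libraries of a group and a bar at their mean. TGFB2 is lower in shTAF7 than in control in both lines, TGFBR2 is highest in LM2 control, and SMAD6 is at most 0.43 FPKM in the LM2 libraries.

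By FPKM, which allows levels to be compared between genes, the order differed between the lines. In LM2 control TGFBR2 was highest, at 46.5 and 50.07 FPKM, followed by TGFB1 at 25.49 and 28.38, SMAD3 at 20.67 and 19.9, and TGFB2 at 12.48 and 12.55 FPKM. In MDA-MB-231 control SMAD3 was highest, at 42.11 and 41.97 FPKM, followed by TGFB1 at 25.18 and 26.26, TGFBR2 at 15.66 and 15.9, and TGFB2 at 12.85 and 12.75 FPKM. Neighbours in these orders did not overlap, except TGFB3 and SMAD6, the lowest 2 genes of LM2 control. In LM2 shTAF7 TGFB1 (26.16 and 29.47 FPKM) and TGFBR2 (28.96 and 25.57 FPKM) overlapped at the top, as did SMAD7 with SMAD2 and TGFB3 with SMAD6 at the bottom. In MDA-MB-231 shTAF7 the order of the highest 3 genes was that of its control, and TGFBR3, SMAD2 and SMAD6 overlapped at between 1.65 and 1.79 FPKM. The counts and FPKM of SMAD2 implied a gene length of 36.4 kb, which is also the union of its exons in GENCODE 29, so its 1.07 to 1.82 FPKM sat low beside its 41.8 to 65.3 CPM. The length implied for TGFBR2 was 6.85 kb, against 4.70 kb of exons in GENCODE 29. With GENCODE 29 lengths, tried after seeing the data, TGFBR2 stood clear of TGFB1 at the top of LM2 shTAF7, at 37.2 to 42.2 against 26.4 to 29.7 FPKM. With these lengths SMAD6 also stood above SMAD7 in MDA-MB-231 control, and SMAD7 stood below SMAD2 in LM2 shTAF7 and overlapped it in LM2 control.

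With shTAF7, 4 of the 10 genes fell in LM2 and 4 fell in MDA-MB-231, and TGFB2 was called in both. A call in 1 line only is not in itself a difference between the lines. SMAD6 and SMAD7 were called in MDA-MB-231 only in the fit reported here. Their differences between the lines were not called (adjusted p = 0.0993 and 0.81, edgeR). In LM2 TGFB2, TGFBR1, TGFBR2 and SMAD3 fell and 0 rose, where 19.4% of all 15923 tested genes fell and 21.8% rose (edgeR, adjusted p under 0.05). In MDA-MB-231 TGFB2, TGFBR3, SMAD6 and SMAD7 fell and 0 rose, where 12.9% of all tested genes fell and 12.6% rose. No gene of the 10 rose at an unadjusted p under 0.05 except TGFB1 in LM2 and TGFBR1 in MDA-MB-231, which missed the adjusted threshold in the fit reported here. The median log2 fold change of the 10 was -0.26 in LM2 and -0.10 in MDA-MB-231, beside -0.02 and 0.01 over all tested genes. Between the controls 2 genes were higher in LM2 and 5 were lower, where 32.2% of all tested genes were higher and 32.1% were lower. The knockdown effects themselves differed between the lines for 4 of the 10, with 1 higher and 3 lower in LM2, where 13.9% and 11.9% of all tested genes differed in these directions. The line comparison shares its LM2 and MDA-MB-231 control libraries with the knockdown comparisons, while the knockdown comparisons share none with each other.

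**Figure D2:**
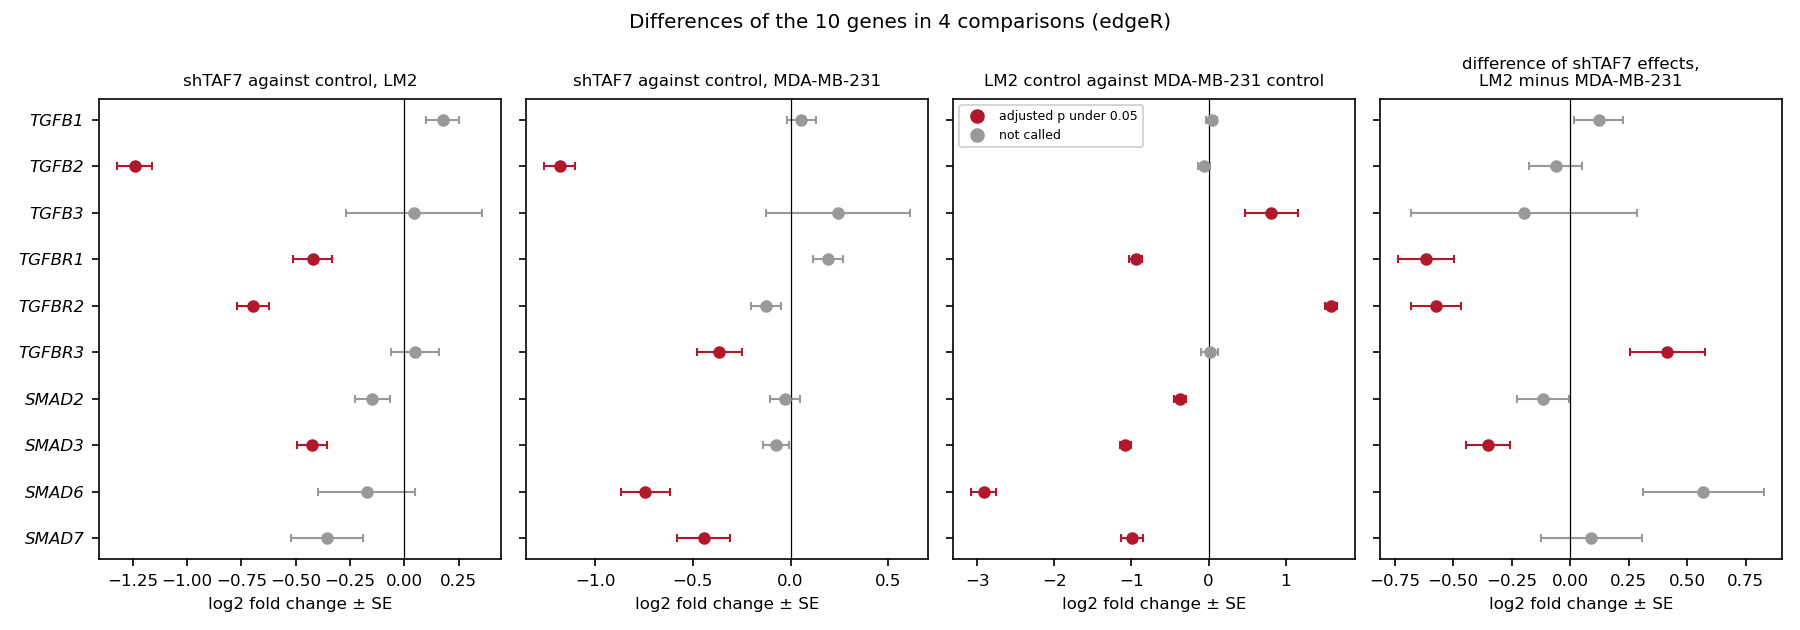
Log2 fold change with its standard error for the 10 genes in shTAF7 against control in LM2 and in MDA-MB-231, in LM2 control against MDA-MB-231 control, and for the difference of the shTAF7 effects. Red points have an adjusted p under 0.05 and grey points do not; TGFB2 is red in both knockdown panels, while TGFBR1, TGFBR2 and SMAD3 are red in LM2 and in the difference.

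Among the ligands, TGFB2 mRNA fell to well under its control level in both lines and the other two ligands were not called. TGFB2, whose product needs betaglycan for full receptor binding, stood at 31.2 and 30.7 CPM in LM2 shTAF7, against 73.3 and 73.2 CPM in LM2 control. It stood at 36.0 and 31.6 CPM in MDA-MB-231 shTAF7, against 76.5 and 76.2 CPM in MDA-MB-231 control. Every shTAF7 library lay below every control library, and the controls of the lines lay within a few CPM of each other. The log2 fold change was -1.24 ± 0.08 (adjusted p = 1.84e-17, edgeR) in LM2, or 42.3% of control, and -1.18 ± 0.08 (adjusted p = 7.69e-16) in MDA-MB-231, or 44.1% of control. The effect in LM2 minus that in MDA-MB-231 was -0.06 ± 0.11 (adjusted p = 0.748). TAF7 itself fell less in LM2, and its relation to the TGFB2 fall was not tested. TGFB2 was called in both lines under all 16 alternative settings, with log2 fold changes between -1.35 and -1.21 in LM2 and between -1.28 and -1.07 in MDA-MB-231. The antisense gene TGFB2-AS1 had 2 to 11 counts per library, and since the strand setting of the counting is not given, its reads and those of TGFB2 cannot be told apart where the genes overlap.

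TGFB1, the ligand that most cells express, varied least of the 10. It stood at 89.0 and 103 CPM in LM2 shTAF7, against 80.7 and 89.3 CPM in LM2 control, so these groups overlapped. In MDA-MB-231 it stood at 86.2 and 85.8 CPM in shTAF7, against 80.9 and 84.7 CPM in control. Its log2 fold change was 0.18 ± 0.07 in LM2 (adjusted p = 0.0531, edgeR) and 0.06 ± 0.08 in MDA-MB-231 (adjusted p = 0.65). In LM2 it passed the threshold under 7 of 16 settings, among them without LM2 shTAF7 replicate 2 (0.27, adjusted p = 0.00709) and without LM2 control replicate 3 (0.25, adjusted p = 0.033). TGFB3 was the ligand of lowest level, with 23 to 49 counts per library. It stood at 2.64 and 1.73 CPM in LM2 control, against 1.20 and 1.29 CPM in MDA-MB-231 control, a log2 fold change of 0.81 ± 0.34 (adjusted p = 0.0359). That call rested on LM2 control replicate 2, without which the value was 0.48 (adjusted p = 0.365), and it was lost without either MDA-MB-231 control library (adjusted p = 0.135 without replicate 2 and 0.0841 without replicate 3) and with DESeq2 (adjusted p = 0.104). The shTAF7 libraries overlapped the controls in both lines, with log2 fold changes of 0.05 ± 0.31 in LM2 and 0.24 ± 0.37 in MDA-MB-231.

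As a share of the summed FPKM of the 3 ligands, TGFB2 made up 14.7% ± 1.37 in LM2 shTAF7 and 31.4% ± 1.42 in LM2 control (SD, n = 2 each). It made up 17.3% ± 1.24 in MDA-MB-231 shTAF7 and 33.03% ± 0.785 in MDA-MB-231 control. TGFB1 made up 84.1% ± 1.83 in LM2 shTAF7 and 67.5% ± 1.80 in LM2 control, and 81.8% ± 1.43 in MDA-MB-231 shTAF7 and 66.4% ± 0.760 in MDA-MB-231 control. The shTAF7 shares lay apart from the control shares in both lines, and the lines lay close to each other within each condition. With gene lengths from GENCODE 29 the TGFB2 share was 16.7% in LM2 shTAF7, 34.8% in LM2 control, 19.6% in MDA-MB-231 shTAF7 and 36.5% in MDA-MB-231 control. No test was made on these shares.

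**Figure D3:**
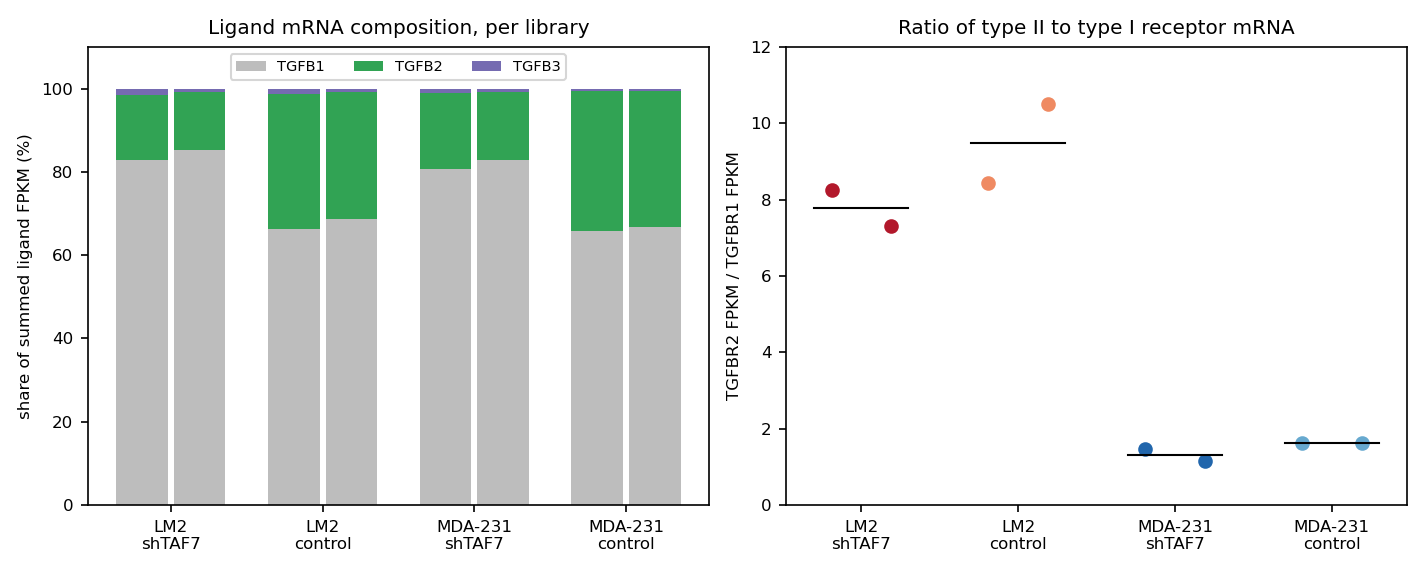
Left, share of the summed ligand FPKM taken by TGFB1, TGFB2 and TGFB3 in each of the 8 libraries (percent, 1 bar per library); right, ratio of TGFBR2 FPKM to TGFBR1 FPKM per library, with a bar at the group mean. The green TGFB2 part averages 14.7% and 17.3% in the shTAF7 groups, and the receptor ratio is above 7 in every LM2 library and under 2 in every MDA-MB-231 library.

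Among the receptors, TGFBR1 and TGFBR2 fell with shTAF7 in LM2, and neither was called in MDA-MB-231. TGFBR2, the ligand-binding type II receptor, stood at 207 and 188 CPM in LM2 shTAF7, against 309 and 331 CPM in LM2 control. In MDA-MB-231 it stood at 107 and 88.8 CPM in shTAF7, against 106 and 108 CPM in control. The LM2 groups did not overlap and the MDA-MB-231 groups did, and the LM2 shTAF7 libraries remained above every MDA-MB-231 library. The log2 fold change was -0.70 ± 0.07 in LM2 (adjusted p = 6.55e-11, edgeR) and -0.12 ± 0.08 in MDA-MB-231 (adjusted p = 0.253), and the effect in LM2 minus that in MDA-MB-231 was -0.57 ± 0.11 (adjusted p = 4.08e-05). That difference was lost on log2(FPKM + 1) with limma and no filter (adjusted p = 0.0526). Without MDA-MB-231 shTAF7 replicate 2 the MDA-MB-231 value was -0.27 (adjusted p = 0.0164) and without replicate 3 it was 0.01 (adjusted p = 0.984). Between the controls TGFBR2 was 3.00-fold higher in LM2 (log2 1.59 ± 0.08, adjusted p = 9.54e-24), the larger of the 2 rises among the 10 genes.

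TGFBR1, the type I receptor kinase that phosphorylates SMADs, was lower in LM2 control than in MDA-MB-231 control and lower again in LM2 shTAF7. It stood at 25.01 and 25.6 CPM in LM2 shTAF7, against 36.5 and 31.3 CPM in LM2 control, and at 72.4 and 76.8 CPM in MDA-MB-231 shTAF7, against 64.3 and 66.3 CPM in MDA-MB-231 control. The shTAF7 libraries lay below the controls in LM2 and above them in MDA-MB-231. The log2 fold change was -0.42 ± 0.09 in LM2 (adjusted p = 0.000151, edgeR) and 0.19 ± 0.08 in MDA-MB-231 (adjusted p = 0.0573), with a difference of -0.62 ± 0.12 (adjusted p = 7.65e-05). In the fit of only the 4 MDA-MB-231 libraries the MDA-MB-231 value passed the threshold (0.20, adjusted p = 0.0268). LM2 control held 51.9% of the level of MDA-MB-231 control (log2 -0.95 ± 0.08, adjusted p = 3.66e-14). The ratio of TGFBR2 FPKM to TGFBR1 FPKM was 7.78 ± 0.668 in LM2 shTAF7 and 9.48 ± 1.47 in LM2 control (SD, n = 2 each), and 1.31 ± 0.227 in MDA-MB-231 shTAF7 and 1.63 ± 0.0133 in MDA-MB-231 control. Lengths from GENCODE 29 gave ratios of 11.3, 13.8, 1.92 and 2.37 in these groups, so the ratio depended on the gene lengths used and was higher in LM2 with both.

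TGFBR3, which encodes betaglycan, stood at 18.9 and 21.0 CPM in LM2 shTAF7, against 18.8 and 19.7 CPM in LM2 control. It stood at 15.0 and 14.5 CPM in MDA-MB-231 shTAF7, against 17.4 and 20.7 CPM in MDA-MB-231 control. It fell in MDA-MB-231, by 0.36 ± 0.11 on the log2 scale (adjusted p = 0.0143, edgeR), and was not called in LM2 (0.05 ± 0.11, adjusted p = 0.751). The MDA-MB-231 call was lost without control replicate 3 (-0.24) and without shTAF7 replicate 3 (-0.34). It was also lost under every limma setting on log2 FPKM (adjusted p between 0.076 and 0.154). The difference between the lines, 0.41 ± 0.16, had an adjusted p of 0.0473 and was called under 4 of 15 alternative settings. Between the controls the log2 fold change was 0.02 ± 0.11 (adjusted p = 0.907). The ratio of TGFBR2 FPKM to TGFBR3 FPKM was 12.5 ± 1.77 in LM2 shTAF7 and 20.8 ± 0.327 in LM2 control, and 8.28 ± 0.870 in MDA-MB-231 shTAF7 and 7.06 ± 0.768 in MDA-MB-231 control. Lengths from GENCODE 29 gave 18.4, 30.7, 12.2 and 10.4 in these groups.

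Of the receptor-activated SMADs, SMAD3, which binds DNA directly and drives most of the classical target genes, fell in LM2. It stood at 149 and 143 CPM in LM2 shTAF7, against 200 and 191 CPM in LM2 control, and at 394 and 392 CPM in MDA-MB-231 shTAF7, against 413 and 414 CPM in MDA-MB-231 control. The shTAF7 libraries lay below their controls in both lines, by a wider margin in LM2. For SMAD3 the log2 fold change was -0.43 ± 0.07 in LM2 (adjusted p = 1.8e-06, edgeR) and -0.07 ± 0.07 in MDA-MB-231 (adjusted p = 0.453), and the difference was -0.35 ± 0.09 (adjusted p = 0.00424). LM2 control held 47.3% of the SMAD3 level of MDA-MB-231 control (log2 -1.08 ± 0.07, adjusted p = 3.87e-19), so LM2 shTAF7 held the least SMAD3 of the 4 groups. SMAD2, its partner in the same complex, stood at 47.2 and 41.8 CPM in LM2 shTAF7, against 50.1 and 48.3 CPM in LM2 control. In MDA-MB-231 it stood at 62.5 and 62.4 CPM in shTAF7, against 65.3 and 62.2 CPM in control. It was not called in either line (-0.15 ± 0.08, adjusted p = 0.14 in LM2; -0.03 ± 0.08, adjusted p = 0.832 in MDA-MB-231). Between the controls it was lower in LM2 (log2 -0.37 ± 0.08, adjusted p = 4.48e-05), a call lost on log2(FPKM + 0.1) with limma (adjusted p = 0.0533) and on log2(FPKM + 1) with limma and no filter (adjusted p = 0.0703).

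Both inhibitory SMADs were lower in LM2 control than in MDA-MB-231 control. SMAD6, which mainly restrains signalling by bone morphogenetic proteins, stood at 2.07 and 3.64 CPM in LM2 shTAF7 and at 3.58 and 2.90 CPM in LM2 control. In MDA-MB-231 it stood at 15.4 and 14.0 CPM in shTAF7, against 24.5 and 24.4 CPM in control. In raw counts that was 37 and 69 in LM2 shTAF7, 65 and 52 in LM2 control, 264 and 286 in MDA-MB-231 shTAF7, and 472 and 437 in MDA-MB-231 control. The MDA-MB-231 groups did not overlap and the LM2 groups did. LM2 control held 13.2% of the SMAD6 level of MDA-MB-231 control (log2 -2.92 ± 0.16, adjusted p = 2.99e-21, edgeR), the largest difference of the 10 genes in any of the 4 comparisons, and on log2(FPKM + 1) it was -1.49. With shTAF7 SMAD6 fell to 59.8% of control in MDA-MB-231 (-0.74 ± 0.13, adjusted p = 1.39e-05), a call lost on log2(FPKM + 0.1) with limma (adjusted p = 0.0501). In LM2 the log2 fold change was -0.17 ± 0.22 (adjusted p = 0.568), and the difference between the lines, 0.57 ± 0.26, was not called (adjusted p = 0.0993). It was called without LM2 shTAF7 replicate 2, at 0.92 (adjusted p = 0.00921), and on log2(FPKM + 1), at 0.44 (adjusted p = 0.0362).

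SMAD7, which blocks the type I receptor and recruits ubiquitin ligases to it, stood at 5.58 and 5.12 CPM in LM2 shTAF7, against 7.27 and 6.41 CPM in LM2 control. It stood at 9.39 and 10.5 CPM in MDA-MB-231 shTAF7, against 13.9 and 13.3 CPM in MDA-MB-231 control. The shTAF7 libraries lay below the controls in both lines. The log2 fold change was -0.35 ± 0.17 in LM2 (adjusted p = 0.0814, edgeR) and -0.45 ± 0.14 in MDA-MB-231 (adjusted p = 0.0119), and the difference between the lines was 0.09 ± 0.21 (adjusted p = 0.81). With limma the LM2 fall was called on log2(FPKM + 1) (adjusted p = 0.0302) and on log2(FPKM + 0.1) (adjusted p = 0.0237). The MDA-MB-231 call was lost without shTAF7 replicate 2 (adjusted p = 0.0875), control replicate 2 (adjusted p = 0.105) or control replicate 3 (adjusted p = 0.0506). It was also lost on log2(FPKM + 1) with limma and no filter (adjusted p = 0.0776). LM2 control held 50.3% of the SMAD7 level of MDA-MB-231 control (log2 -0.99 ± 0.14, adjusted p = 5.51e-08). The ratio of SMAD3 FPKM to SMAD7 FPKM was 10.8 ± 0.361 in LM2 shTAF7 and 11.3 ± 0.634 in LM2 control, and 15.6 ± 1.33 in MDA-MB-231 shTAF7 and 12.04 ± 0.386 in MDA-MB-231 control (SD, n = 2 each). Between the controls both genes were lower in LM2, and the ratios of the controls were 11.3 in LM2 control and 12.04 in MDA-MB-231 control. With GENCODE 29 lengths the ratio was 15.1 in LM2 shTAF7, 15.9 in LM2 control, 21.9 in MDA-MB-231 shTAF7 and 16.8 in MDA-MB-231 control.

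The genes whose profile over the 8 libraries lay nearest to the 3 most variable of the 10 were found among 10750 genes with a mean of at least 5 CPM, by the root mean square difference of log2 CPM after centring each gene. Nearest to SMAD6 was IL11, a cytokine and known TGF-beta target (0.24), followed by C9orf64 (0.25) and TSPAN2 (0.27). IL11 averaged 26.9 CPM in LM2 shTAF7, 39.2 CPM in LM2 control, 133 CPM in MDA-MB-231 shTAF7 and 211 CPM in MDA-MB-231 control. Nearest to TGFBR2 were CHST11, a chondroitin sulfotransferase (0.09), HRH1, a histamine receptor (0.11), and LAMA1, a laminin chain (0.12). CHST11 averaged 42.8 CPM in LM2 shTAF7, 60.8 CPM in LM2 control, 18.7 CPM in MDA-MB-231 shTAF7 and 21.6 CPM in MDA-MB-231 control. Nearest to TGFBR1 were CASP8, an initiator caspase (0.08), NOP14-AS1, an antisense gene (0.09), and JAK2, a cytokine receptor kinase (0.10). The 8 libraries form 4 groups, which these profiles share.

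The other genes of the pathway were read from 5 lists, and the shares of all tested genes are given beside their counts. In these lists ± after a CPM mean is the SD of 2 libraries, and ± after a log2 fold change is the SE. Of 21 genes of the latent complex and its activators, 17 were tested. In LM2 1 rose and 6 fell with shTAF7 (median -0.09, beside -0.02 over all genes), and in MDA-MB-231 4 rose and 2 fell (median 0.06, beside 0.01). Of all tested genes 21.8% rose and 19.4% fell in LM2, and 12.6% rose and 12.9% fell in MDA-MB-231. The single rise in LM2 became 2 without LM2 control replicate 2, and the 2 falls in MDA-MB-231 became 1 without shTAF7 replicate 3. LTBP3, a latent TGF-beta binding protein, fell in LM2 to 18.2 ± 0.753 CPM in shTAF7, against 49.5 ± 0.155 CPM in control (log2 -1.45 ± 0.09, adjusted p = 2.34e-18, edgeR), and ITGB3, an integrin chain, fell to 3.59 ± 0.602 CPM, against 6.86 ± 1.12 CPM (-0.94 ± 0.18, adjusted p = 5.33e-05). In MDA-MB-231 ITGB3 was at -0.34 ± 0.15 (adjusted p = 0.0843), and its difference between the lines was not called (adjusted p = 0.058), except without LM2 shTAF7 replicate 2 (-0.77, adjusted p = 0.034) or LM2 control replicate 3 (-0.75, adjusted p = 0.0308). THBS1, the matrix protein thrombospondin that can activate latent TGF-beta, fell in MDA-MB-231 to 151 ± 18.8 CPM in shTAF7, against 313 ± 4.05 CPM in control (-1.05 ± 0.07, adjusted p = 7.69e-16), and LTBP1 rose there to 70.9 ± 8.70 CPM, against 50.3 ± 1.06 CPM (0.49 ± 0.08, adjusted p = 7e-06). In LM2 THBS1 averaged 187 CPM in both shTAF7 and control. Between the controls 7 were higher in LM2 and 5 lower (median -0.07, beside 0.02), where 32.2% of all tested genes were higher and 32.1% lower. MMP14, a membrane protease that can activate latent TGF-beta, averaged 410 ± 13.2 CPM in LM2 control and 105 ± 1.38 CPM in MDA-MB-231 control (1.97 ± 0.07, adjusted p = 1.51e-27), while FBN2, a fibrillin that anchors latent complexes, had 4 counts in all in LM2 control and 562 in MDA-MB-231 control.

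Of 20 coreceptors, other receptors and receptor regulators, 19 were tested. With shTAF7 5 rose and 7 fell in LM2 (median -0.04), and 4 rose and 3 fell in MDA-MB-231 (median -0.11). PMEPA1, a TGF-beta target that sequesters receptor-activated SMADs, fell in LM2 to 13.4 ± 0.738 CPM in shTAF7, against 20.7 ± 1.16 CPM in control (-0.63 ± 0.11, adjusted p = 7.4e-06, edgeR), and ACVR2A, an activin type II receptor, fell by 0.50 ± 0.14. In MDA-MB-231 TGFBRAP1, a receptor-associated protein, fell to 44.5 ± 0.745 CPM in shTAF7, against 61.2 ± 0.804 CPM in control (-0.46 ± 0.08, adjusted p = 3.21e-05). ZFYVE9, which presents SMADs to the receptor, fell there by 0.38 ± 0.11 (adjusted p = 0.00538), a call lost without shTAF7 replicate 3 (adjusted p = 0.197) or control replicate 2 (adjusted p = 0.101). That call was also lost under every limma setting (adjusted p between 0.0604 and 0.141). The TGFBRAP1 call was lost on log2(FPKM + 1) with limma and no filter (adjusted p = 0.0618). ZFYVE9 also fell in LM2 (-0.45 ± 0.11, adjusted p = 0.000822), and its difference between the lines was not called (adjusted p = 0.794). For ACVR2A that difference was not called either (adjusted p = 0.0741), except without MDA-MB-231 shTAF7 replicate 2 (-0.50, adjusted p = 0.0437). The 4 rises in MDA-MB-231 became 0 without control replicate 2, 1 without shTAF7 replicate 2 or control replicate 3, and 2 without shTAF7 replicate 3. The 3 falls there became 1 without control replicate 2 and 5 without MDA-MB-231 shTAF7 replicate 2 or either LM2 shTAF7 library. In LM2 the 7 falls became 4 without shTAF7 replicate 3, and the 5 rises became 3 without that library or control replicate 3. Between the controls 4 were higher in LM2 and 9 lower (median -0.21), where 32.2% of all tested genes were higher and 32.1% lower. Among the lower ones were TGFBRAP1 (-0.96 ± 0.09, adjusted p = 6.96e-14) and the bone morphogenetic protein receptor BMPR2 (-0.95 ± 0.07, adjusted p = 1.41e-15).

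Of 24 other SMADs and nuclear partners, 23 were tested. With shTAF7 4 rose and 9 fell in LM2 (median -0.04), and 1 rose and 10 fell in MDA-MB-231 (median -0.13). The 10 falls in MDA-MB-231 became 3, 4 and 6 without shTAF7 replicate 3, control replicate 3 and control replicate 2 in turn, and the 9 in LM2 became 5 without shTAF7 replicate 3. The single rise in MDA-MB-231 became 0 without control replicate 3. The coactivators EP300 and CREBBP fell in MDA-MB-231, EP300 to 70.8 ± 9.33 CPM in shTAF7, against 118 ± 1.40 CPM in control (-0.74 ± 0.08, adjusted p = 6.53e-10, edgeR), and CREBBP by 0.42 ± 0.09 (adjusted p = 0.000367), lost without shTAF7 replicate 3 (adjusted p = 0.0733). Both also fell in LM2, EP300 by 0.56 ± 0.09 (adjusted p = 6.63e-07) and CREBBP by 0.29 ± 0.09 (adjusted p = 0.00554), a call lost without LM2 shTAF7 replicate 3 (adjusted p = 0.166) or LM2 control replicate 3 (adjusted p = 0.185). Neither difference between the lines was called (adjusted p = 0.275 for EP300 and 0.477 for CREBBP), though that of EP300 was without MDA-MB-231 shTAF7 replicate 2 (0.32, adjusted p = 0.0379). The CREBBP call in MDA-MB-231 was also lost under every limma setting (adjusted p between 0.0624 and 0.192). Its LM2 call was lost on log2(FPKM + 1) with limma and no filter (adjusted p = 0.12). In LM2 the corepressor TGIF1 fell to 37.5 ± 0.0219 CPM in shTAF7, against 70.4 ± 1.74 CPM in control (-0.91 ± 0.08, adjusted p = 5.49e-13), and E2F5, which joins SMADs at the MYC promoter, fell by 0.93 ± 0.16 (adjusted p = 5.93e-06). TGIF1 rose in MDA-MB-231 (0.34 ± 0.09, adjusted p = 0.00238), a call lost without control replicate 3 (0.27, adjusted p = 0.105). That call was also lost on log2(FPKM + 1) with limma and no filter (adjusted p = 0.0633). E2F5 was not called in MDA-MB-231 (-0.22 ± 0.15). Between the controls 6 were higher in LM2 and 10 lower (median -0.15), where 32.2% of all tested genes were higher and 32.1% lower. TGIF1 was higher (1.25 ± 0.08, adjusted p = 2.63e-18) and EP300 lower (-1.11 ± 0.08, adjusted p = 5.98e-17).

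Of 43 genes listed as transcriptional targets of TGF-beta, 37 were tested. With shTAF7 20 fell, 4 rose and 13 missed the threshold in LM2 (median -0.25, beside -0.02 over all genes), while 15 fell, 4 rose and 18 missed it in MDA-MB-231 (median -0.10, beside 0.01). Of all tested genes 19.4% fell and 21.8% rose in LM2, and 12.9% fell and 12.6% rose in MDA-MB-231. The 4 rises in LM2 became 1 when any control library of either line was left out, and 2 without LM2 shTAF7 replicate 3. The 4 rises in MDA-MB-231 became 2 without shTAF7 replicate 2 or either control library of that line. In LM2 VEGFA, an angiogenic factor that is also a hypoxia target, fell to 99.1 ± 2.52 CPM in shTAF7, against 339 ± 1.18 CPM in control (-1.78 ± 0.07, adjusted p = 3.22e-26, edgeR), and COL5A1, a fibrillar collagen chain, fell to 21.2 ± 1.06 CPM, against 40.5 ± 1.37 CPM (-0.94 ± 0.09, adjusted p = 3.96e-12). In MDA-MB-231 the kinase gene NUAK1 fell to 15.8 ± 2.96 CPM in shTAF7, against 30.1 ± 0.757 CPM in control (-0.94 ± 0.11, adjusted p = 5.35e-09), and COL4A1, a basement membrane collagen chain, fell to 57.2 ± 6.37 CPM, against 91.9 ± 0.255 CPM (-0.69 ± 0.08, adjusted p = 3.8e-09). COL4A1 also fell in LM2 (-0.43 ± 0.08, adjusted p = 3.32e-05) with no called difference between the lines (adjusted p = 0.0936), although that difference was called without MDA-MB-231 shTAF7 replicate 2 (0.38, adjusted p = 0.0142) or LM2 shTAF7 replicate 3 (0.36, adjusted p = 0.0207). In MDA-MB-231 the log2 fold change was 0.20 ± 0.07 for VEGFA (adjusted p = 0.0279) and -0.25 ± 0.08 for COL5A1 (adjusted p = 0.0126). The VEGFA call was lost without any 1 of the 4 MDA-MB-231 libraries (adjusted p between 0.0706 and 0.284), and the COL5A1 call without shTAF7 replicate 2 (adjusted p = 0.0752) or either control library (adjusted p = 0.0808 and 0.0958). Both calls were also lost under every limma setting (adjusted p between 0.0593 and 0.0952). The VEGFA call was lost in edgeR without the low-count filter as well (adjusted p = 0.0578). LOX, which crosslinks collagen, averaged 101 ± 0.494 CPM in LM2 shTAF7 and 142 ± 2.18 CPM in LM2 control, and 66.6 ± 1.72 CPM in MDA-MB-231 shTAF7 and 45.3 ± 2.95 CPM in MDA-MB-231 control.

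TGFBI, which encodes a secreted matrix protein and is a known TGF-beta target, was chosen once its values had been seen. It averaged 170 ± 4.41 CPM in LM2 shTAF7 and 157 ± 0.994 CPM in LM2 control, and 234 ± 21.8 CPM in MDA-MB-231 shTAF7 and 306 ± 0.202 CPM in MDA-MB-231 control. It fell in MDA-MB-231 (-0.39 ± 0.07, adjusted p = 2.46e-05, edgeR) and was not called in LM2 (0.11 ± 0.07, adjusted p = 0.194), with a difference of 0.50 ± 0.10 (adjusted p = 9.42e-05). Between the controls 17 of the 37 targets were higher in LM2 and 14 lower (median 0.44, beside 0.02). Of all tested genes 32.2% were higher and 32.1% lower. TAGLN, a smooth muscle actin-binding protein, averaged 22.1 ± 0.592 CPM in LM2 control and 1.33 ± 0.412 CPM in MDA-MB-231 control (4.06 ± 0.18, adjusted p = 1.23e-24), and TGM2, a transglutaminase, averaged 617 ± 38.5 CPM and 101 ± 3.61 CPM in these groups (2.61 ± 0.07, adjusted p = 1.02e-32). Fibroblast markers, among them the target COL1A1, summed to between 14.7 and 16.4 CPM in LM2 shTAF7, 27.2 and 33.5 CPM in LM2 control, 7.17 and 8.05 CPM in MDA-MB-231 shTAF7, and 8.50 and 9.72 CPM in MDA-MB-231 control. COL1A1 and PDGFRB made up most of these sums, the other fibroblast markers had at most 4 counts in any library, and their part in the target counts was not tested.

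**Figure D4:**
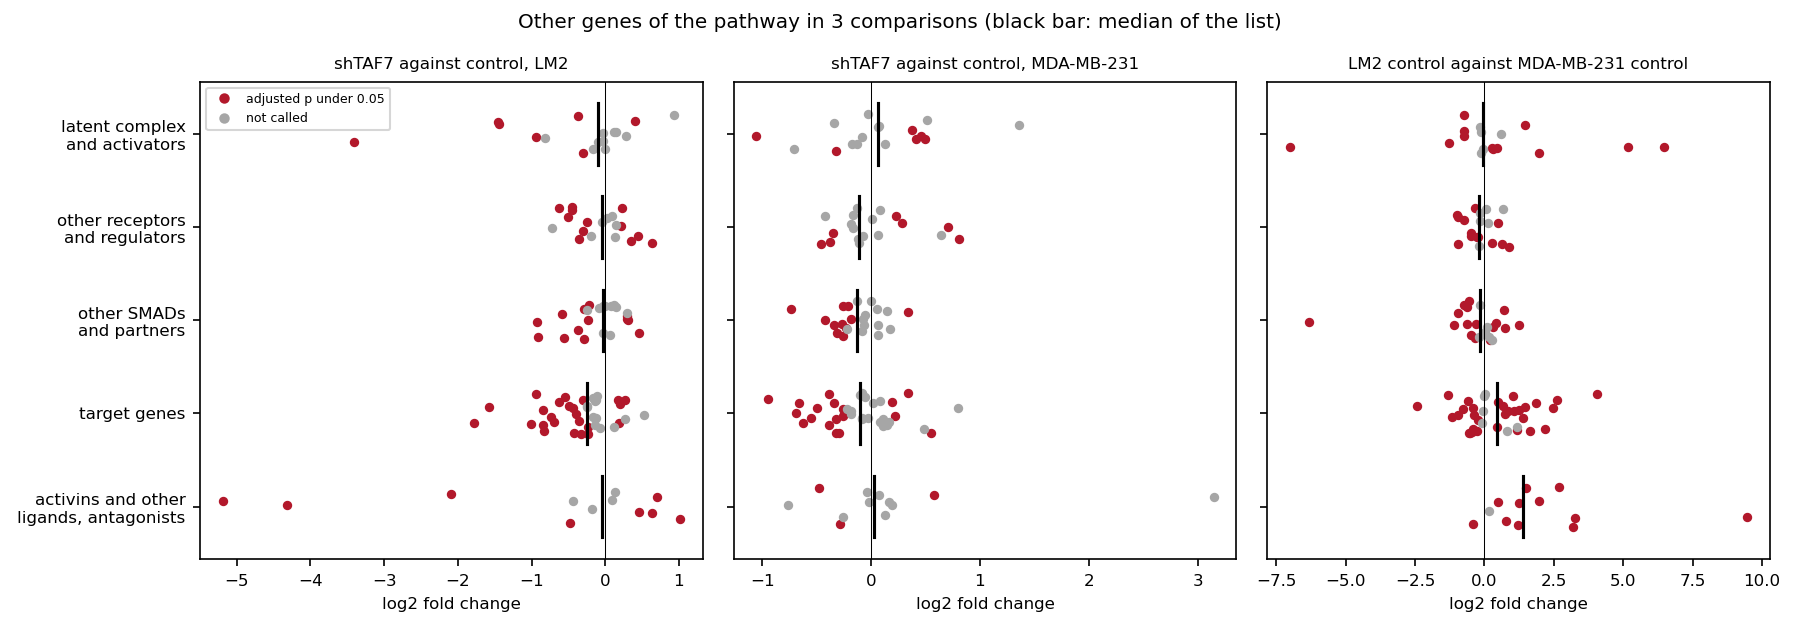
Log2 fold changes of the tested genes of 5 pathway lists for the shTAF7 effect in LM2, the shTAF7 effect in MDA-MB-231, and LM2 control against MDA-MB-231 control (1 point per gene, red at an adjusted p under 0.05, black bar at the list median; the horizontal scales differ between panels). The target genes have medians of -0.25, -0.10 and 0.44 in the 3 panels, and GDF15, at -5.19 in LM2, is the point furthest left there.

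Of 20 activins, other ligands of the superfamily and their antagonists, 12 were tested. With shTAF7 4 rose and 4 fell in LM2 (median -0.04), and 1 rose and 2 fell in MDA-MB-231 (median 0.03). The 4 rises in LM2 became 2 without control replicate 3, and the 2 falls in MDA-MB-231 became 1 without shTAF7 replicate 3 or control replicate 3. In LM2 the stress-induced ligand GDF15 fell to 0.993 ± 0.537 CPM in shTAF7, against 36.8 ± 1.38 CPM in control (-5.19 ± 0.18, adjusted p = 2.41e-28, edgeR), and INHBA, which encodes the activin A subunit, fell to 8.03 ± 1.64 CPM, against 34.3 ± 0.219 CPM (-2.09 ± 0.13, adjusted p = 5.23e-18). In MDA-MB-231 FST, which encodes the activin antagonist follistatin, rose to 29.2 ± 2.34 CPM in shTAF7, against 19.7 ± 0.597 CPM in control (0.57 ± 0.09, adjusted p = 6.72e-06), and GDF15 fell by 0.48 ± 0.13 (adjusted p = 0.00349). With limma that GDF15 call was lost on log2(FPKM + 0.1) (adjusted p = 0.196) and on log2(FPKM + 1) without a filter (adjusted p = 0.105). Between the controls 10 of the 12 were higher in LM2 and 1 was lower (median 1.37, beside 0.02). Of all tested genes 32.2% were higher and 32.1% lower. INHBA averaged 34.3 ± 0.219 CPM in LM2 control and 3.59 ± 0.958 CPM in MDA-MB-231 control (3.25 ± 0.15, adjusted p = 2.91e-24), and NOG, which encodes the antagonist noggin, averaged 24.8 ± 0.920 CPM and 2.68 ± 0.547 CPM in these groups (3.20 ± 0.15, adjusted p = 2.28e-24). GDF15 averaged 36.8 ± 1.38 CPM in LM2 control and 16.0 ± 0.371 CPM in MDA-MB-231 control.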

How the data were processed

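The deposited read counts per gene are whole numbers without normalization. FPKM values were deposited beside them and, judged from the values, divide these counts by gene length and library total (5518 genes, largest deviation 0.125%). STAR 2.7.10a and hg19 are named in the submitters' processing notes without a role, and the sources used here name no counting program, strand setting or annotation.

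The 10 genes, the 5 pathway lists and the marker lists were chosen with earlier results of these data known. Counts were filtered with edgeR's filterByExpr (15923 genes left), scaled with TMM, and tested by quasi-likelihood in 1 fit of all 8 libraries, each group having its own mean (R 4.3.3, edgeR 4.0.16), with 4 residual degrees of freedom. Quasi-likelihood dispersions were moderated over all tested genes, so the p-values draw on more than these 4 degrees of freedom. A call needed p under 0.05 after Benjamini-Hochberg adjustment over all tested genes. SE is the log2 fold change divided by the root of F, and CPM is on TMM-scaled totals of tested genes. After a CPM mean, a share or a ratio, ± is the SD of 2 libraries. Alternatives were RLE factors, no filter, DESeq2 1.42.0, only the groups compared, a replicate block, limma 3.58.1 on log2 FPKM (pseudocount 1 or 0.1, and 1 without a filter), and each library left out. GENCODE 29 lengths were added after seeing the data.

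From each list, called genes averaging 5 CPM or more whose groups do not overlap were ranked by absolute fold change in each comparison; of up to 4 kept, the first 2 are described. TGFBI falls outside that rule. Some items are not reported here. Promoters were matched by symbol to RefSeq (all 10 genes). 1 listed gene was found under an older symbol. The pipeline was tested on simulated data. Replicates of each group differed beyond sampling noise.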

Additional observations from a re-analysis of the deposited data

Results flagged for a closer look

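The knockdown effect differed between the lines (edgeR, adjusted p under 0.05 for LM2 minus MDA-MB-231 on the log2 scale) for 4 of the 10 genes: TGFBR1 by -0.62, TGFBR2 by -0.57, TGFBR3 by 0.41 and SMAD3 by -0.35. TGFBR3 was the least stable of these, as it was called under 4 of 15 alternative settings. TAF7 itself differed by 0.34, with the smaller fall in LM2, and lost its call (0.32, adjusted p = 0.0511) when MDA-MB-231 control replicate 3 was left out.

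Among the genes of the latent complex the difference was -1.51 for LTBP3, 1.06 for THBS1, -0.42 for MMP14 and -0.38 for LTBP1. LTBP1 was not called without MDA-MB-231 shTAF7 replicate 2 (-0.24), without replicate 3 of the MDA-MB-231 control (-0.35) or without LM2 control replicate 2 (-0.33). MMP14 was -0.28 without MDA-MB-231 shTAF7 replicate 2. On log2(FPKM + 1) with limma and no filter neither was called (adjusted p = 0.0871 for LTBP1 and 0.0614 for MMP14). Among receptors and their regulators the difference was -0.71 for PMEPA1, 0.42 for TGFBRAP1 and 0.31 for BMPR2. TGFBRAP1 was not called without LM2 shTAF7 replicate 2 (0.32) or LM2 control replicate 2 (0.32). BMPR2 lost its call without any 1 of 5 libraries (MDA-MB-231 shTAF7 replicate 3, either MDA-MB-231 control, LM2 shTAF7 replicate 3 and LM2 control replicate 2), with values between 0.26 and 0.32. Both were also not called under any limma setting (adjusted p between 0.134 and 0.281).

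Among nuclear partners the difference was -1.25 for TGIF1 and -0.71 for E2F5. E2F5 was not called without MDA-MB-231 shTAF7 replicate 3 (-0.48) or LM2 shTAF7 replicate 3 (-0.58). It was also not called with DESeq2 (adjusted p = 0.0633) or under any limma setting (adjusted p between 0.0645 and 0.184). Among target genes the difference was -1.97 for VEGFA, -1.05 for LOX, -0.68 for COL5A1, 0.70 for NUAK1 and 0.50 for TGFBI. TGFBI was not called on log2(FPKM + 1) with limma and no filter (adjusted p = 0.0695). Among the other ligands and antagonists it was -4.71 for GDF15, -2.28 for INHBA, 1.04 for NOG and -0.47 for FST. With 2 libraries in a group, no single library could be tested as an outlier.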

How the results depend on the processing

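Over the 10 genes in 4 comparisons, 560 of 629 recomputed values kept direction and side of the threshold, 31 lost their call, 15 gained one and 23 changed sign, all 23 for values not called. TGFB2, TGFBR1, TGFBR2 and SMAD3 in LM2, and TGFB2 in MDA-MB-231, were called under every alternative. For TAF7 and the list genes, 1574 of 1699 values kept both, 100 lost a call, 10 gained one and 15 changed sign, all 15 for values not called. TGFBI in LM2 was -0.013 on log2(FPKM + 1), with or without the filter, and -0.014 on log2(FPKM + 0.1). The CREBBP difference was -0.0032 on log2(FPKM + 1), with or without the filter, and E2F5 between the controls was -0.026 without the filter. Leaving out 1 library gave -0.17 to 0.0039 for ACVR2A in MDA-MB-231, -0.038 to 0.031 for E2F5 between the controls, and -0.026 to 0.30 and -0.21 to 0.082 for the differences of CREBBP and ZFYVE9.

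Signs changed in LM2 with shTAF7 on log2(FPKM + 1), with or without the filter, for TGFB3 (-0.020) and TGFBR3 (-0.056), and on log2(FPKM + 0.1) for TGFB3 (-0.057) and TGFBR3 (-0.077), where the median of all genes was -0.128 in LM2 and -0.104 for the difference between the lines. SMAD7 then differed between the lines by -0.0016. Without the filter on counts TGFBR3 was -0.014 between the controls. Leaving out 1 library in turn gave values on both sides of 0 for TGFB1 (-0.043 to 0.11) and TGFBR3 (-0.11 to 0.14) between the controls, for TGFB3 (-0.29 to 0.39), TGFBR3 (-0.020 to 0.11) and SMAD6 (-0.64 to 0.16) in LM2, for TGFB3 (-0.030 to 0.49), TGFBR2 (-0.27 to 0.0058) and SMAD2 (-0.069 to 0.00012) in MDA-MB-231, and for TGFB2 (-0.16 to 0.038) and TGFB3 (-0.52 to 0.14) in the difference.

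Of the 10 genes, 2 to 5 were called in MDA-MB-231, 4 to 6 in LM2, 6 to 7 between the controls and 3 to 5 for the difference when 1 library was left out. In MDA-MB-231 the count was 2 without MDA-MB-231 control replicate 3, and 2 on log2(FPKM + 0.1) and on log2(FPKM + 1) without a filter, where it was also 2 for the difference. Over all genes rises numbered 926 to 2026 and falls 1102 to 2376 in MDA-MB-231, 2688 to 3591 rose and 2158 to 3228 fell in LM2, 4336 to 5213 and 4600 to 5242 differed between the controls, and 1517 to 2343 and 1405 to 1791 for the difference. Rises in LM2 numbered 1893, 1830 and 1292 on log2(FPKM + 1), log2(FPKM + 0.1) and log2(FPKM + 1) without a filter, and higher differences 998, 944 and 590. The last setting gave 501 rises and 621 falls in MDA-MB-231 and 1164 lower differences. FPKM here carry no TMM scaling. The TMM factors were 0.960 and 0.935 in LM2 shTAF7 and 1.03 and 1.04 in LM2 control. In MDA-MB-231 they were 0.997 and 1.01 in shTAF7 and 1.02 and 1.01 in control. The cause of these changes in counts was not tested.

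With the replicate number as a block, 4, 5, 7 and 4 of the 10 genes were called in MDA-MB-231, LM2, the controls and the difference, and over all genes rises and falls numbered 2015 and 2038 in MDA-MB-231 and 3468 and 3086 in LM2. TGFB1 in LM2 then had an adjusted p of 0.0494. The correlation of deviations of same-numbered libraries was -0.062 within MDA-MB-231 and -0.033 within LM2. Over all pairs of groups it ran from -0.14 (MDA-MB-231 shTAF7 with LM2 control) to 0.071 (MDA-MB-231 control with LM2 shTAF7). No label says that the numbers mark a shared batch, so they were not taken as pairs. The fit of only the groups compared was not possible for the difference, which needs all 8 libraries. Depth limits TGFB3, with 23 to 49 counts a library, and SMAD6 in LM2, with 37 to 69.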
